A study of Mus musculus with 6 samples.

Results

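Myofibroblastic fibroblasts are the contractile, matrix-laying fibroblasts of a tumour's stroma. They were picked out of single-cell RNA libraries of mouse pancreatic tumours by their own transcripts. A barcode counted as a fibroblast when at least 3 of the 6 genes Col1a1, Col1a2, Col3a1, Dcn, Lum and Pdgfra had at least 2 unique molecular identifiers (UMIs, the tags that count single RNA molecules). Cells with 5 or more UMIs of the leukocyte genes Ptprc and Tyrobp together, 3 or more of the epithelial gene Epcam, 2 or more of the mesothelial gene Upk3b, or 3 or more of the pericyte gene Rgs5 were left out. Cells with 3 or more UMIs of Crabp1, a retinoic acid binding protein, were left out too. A remaining fibroblast was called myofibroblastic when more genes were detected of Acta2, Tagln, Myl9, Tpm2, Cthrc1, Postn, Thbs2 and Col12a1 than of Clec3b, Dpt, Pi16, Ly6c1, Col14a1, Svep1, C3 and Cxcl12. The rule found 2935 such cells among 54911 cells kept in the whole series.

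The tumours came from KPC mice, a model in which a Cre recombinase under the Pdx1 promoter (Pdx1-Cre) switches on tumour-driving alleles, P53LSL.R172H/+ among them, in pancreatic epithelium and not by design in fibroblasts. All 6 mice had the same genotype. In one group 3 mice received the drug IPI-926, which blocks Smoothened, the membrane protein that passes on the Hedgehog signal, at 40 mg/kg by oral gavage each day for 2 days, and in the other 3 mice received only the vehicle hydroxypropyl-beta-cyclodextrin, 5% w/w in water. Tumours were taken 2 hours after the last dose, freed of healthy pancreas, digested with enzymes and made into 1 library per mouse with 10x Genomics 3' v3 chemistry. The ages of the mice are not given in the sources used here.

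Fibroblasts become myofibroblasts when transforming growth factor beta and mechanical tension act on them: they build actin stress fibres with smooth muscle actin and lay down fibrillar collagen. In pancreatic cancer, epithelial cells secrete Hedgehog ligands and the surrounding fibroblasts receive them. The ligand relieves Smoothened from its receptor Ptch1, Gli factors then switch on targets that include Gli1 and Ptch1 themselves, and those targets read out the pathway's activity. Inflammatory fibroblasts, the other main class, make cytokines and complement and carry less actin.

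The libraries gave 501, 609 and 378 myofibroblastic cells in vehicle replicates 1 to 3 and 231, 145 and 1071 in IPI-926 replicates 1 to 3. Beside them the Crabp1-low fibroblasts held 937 cells with more inflammatory than myofibroblastic genes and 575 with equal numbers, 4447 in all. The rule's edge was crowded: 642 members exceeded by a single gene, 575 cells were tied and 410 fell short by a single gene. Median depth per member was 17117, 24847 and 10049.5 UMIs in the vehicle libraries and 25181, 29733 and 1699 in the IPI-926 libraries. No member barcode was shared between libraries.

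IPI-926 replicate 3 stood apart. It was the library with 2622 of the 2625 Crabp1-high cells that the rule left out. Crabp1 UMIs were found in 618 of its 1071 members and in 8, 2, 9, 1 and 1 members of the other libraries, and 904 of its members held under 5000 UMIs. Of the 618, 371 held 1 Crabp1 UMI and 247 held 2, and the rule's limit of 3 does not scale with a cell's depth. Whether shallow Crabp1-high cells were among its members was not tested. Its leukocyte gate also carried 53.9 CPM of Crabp1 (CPM scales the UMIs to a common library total), against at most 0.0963 elsewhere, and it carried 36.7 CPM of Cthrc1 and 37.4 CPM of Thbs2. Summed over 8 genes, myeloid markers reached 1970 CPM in its members against 92.5 to 254 CPM in the others. Results that rest on this library are therefore given with and without it, and its part in them was not tested otherwise.

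**Figure D1:**
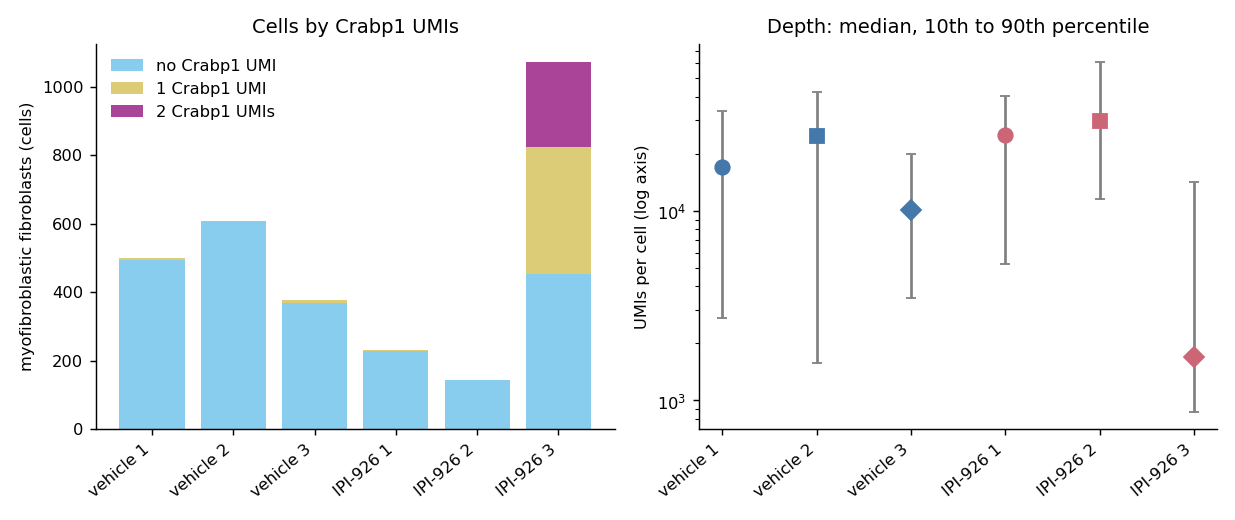
Left, the number of myofibroblastic fibroblasts per library, divided by how many Crabp1 UMIs each cell held (bars start at 0). Right, UMIs per member cell on a log axis, with points at the median and bars from the 10th to the 90th percentile. IPI-926 replicate 3 has 1071 cells, 618 of them with a Crabp1 UMI, at a median of 1699 UMIs, while the other 5 libraries have medians from 10049.5 to 29733.

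The cells were selected on their UMIs of the rule's genes, so those values are given as a description, with no test. Acta2, smooth muscle actin, stood at 2132, 1069 and 485 CPM under vehicle and at 1689, 1416 and 899 CPM under IPI-926, unscaled. Inflammatory fibroblasts of the same libraries held 21.1 to 198 CPM and the leukocyte gate, where the gene should be absent, 8.07 to 26.5 CPM. Cells of the perivascular gate, pericytes and smooth muscle, held more Acta2 than members in 5 of 6 libraries, at 1626 to 5074 CPM, the exception being vehicle replicate 1 at 2085. An Acta2 UMI was seen in 79.0%, 87.7%, 52.6%, 87.4%, 81.4% and 51.4% of members in the same order, and in 4.20% to 14.3% of leukocytes at a median of 3828.5 to 7057 UMIs.

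Tagln, an actin-bundling protein of smooth muscle, was also higher in members than in inflammatory fibroblasts, at 823 to 3101 CPM against 72.6 to 621 CPM. Cthrc1, a secreted protein of activated fibroblasts, lay at 84.7 to 776 CPM in members and at 7.00 to 42.7 CPM in the inflammatory cells of the vehicle libraries, then at 102, 25.6 and 338 CPM under IPI-926. Thbs2, a matrix thrombospondin, was at 158 to 818 CPM in members and 16.5 to 232 CPM in inflammatory cells. Both Cthrc1 and Thbs2 were highest in IPI-926 replicate 3, whose Crabp1-high cells held 1292 CPM of Cthrc1 and 886 CPM of Thbs2.

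Postn, periostin, went against the label. Members held 172, 192 and 535 CPM under vehicle and 755, 92.7 and 964 CPM under IPI-926. The inflammatory cells held 98.4, 477 and 127 CPM, then 360, 207 and 1182 CPM. Members were thus above their inflammatory neighbours in 3 libraries and below them in the other 3. The other 5 of the 6 marker genes given for this class, Acta2, Tagln, Cthrc1, Thbs2 and Col12a1, were higher in members in all 6 libraries. The defining pericyte gene Rgs5, which the rule limits, was at most 8.60 CPM in members against 2775 to 7896 CPM in the perivascular gate. Notch3, which the rule does not use, was at 5.42 to 19.2 CPM against 223 to 482 CPM. Other perivascular markers were less low. The 10 listed summed to 267 to 534 CPM in members, with Ndufa4l2, Cspg4 or Myh11 the highest in each library. Myh11 was at 48.5 CPM in members against 115 CPM in the perivascular gate of vehicle replicate 1. In vehicle replicate 2 it was at 18.7 against 203 CPM.

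**Figure D2:**
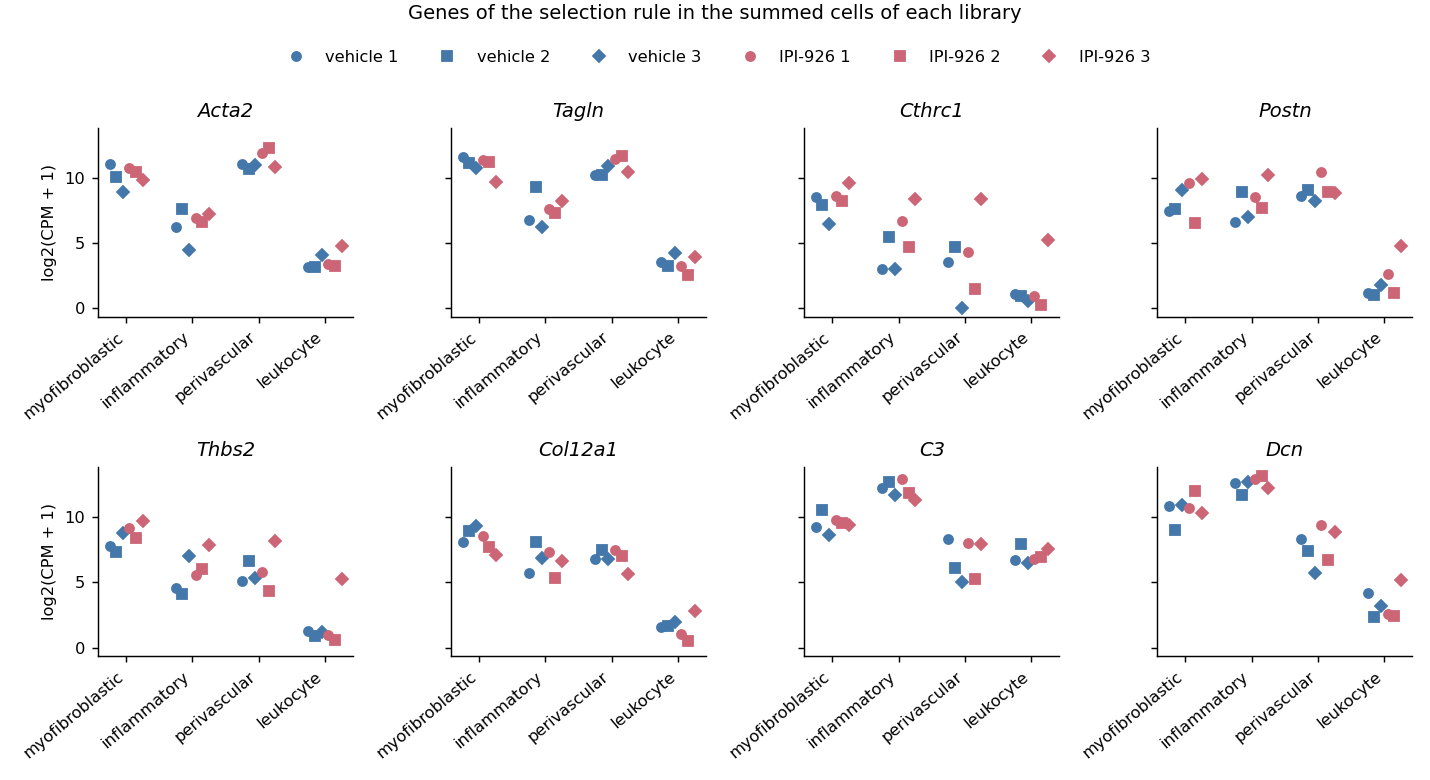
Each point is the summed cells of 1 library as log2(CPM + 1), for members, inflammatory fibroblasts, perivascular cells and leukocytes of 8 genes that the selection used; blue is vehicle and red IPI-926. Acta2 and Tagln are high in members and perivascular cells, Postn overlaps between members and inflammatory cells, and IPI-926 replicate 3 holds the highest leukocyte values of Acta2, Cthrc1, Postn, Thbs2 and Col12a1.

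The promoters of Acta2 and of Myl9, a myosin light chain, are shown because these contractile genes define the cells and both hold CArG-type boxes, the element that serum response factor binds. The stretches are the 250 bases before the start in RefSeq's GRCm38.p6 annotation, chr19:34255374-34255623 on the minus strand and chr2:156775214-156775463 on the plus strand, written 5′ to 3′. Capitals mark each CArG box in which at most 1 of the 6 inner letters is not A or T, a pattern that reads alike on both strands.
Acta2: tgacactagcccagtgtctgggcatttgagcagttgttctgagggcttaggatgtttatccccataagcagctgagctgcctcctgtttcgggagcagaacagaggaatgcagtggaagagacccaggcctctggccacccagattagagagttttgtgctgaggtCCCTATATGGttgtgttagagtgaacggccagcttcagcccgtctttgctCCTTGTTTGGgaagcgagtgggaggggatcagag
Myl9: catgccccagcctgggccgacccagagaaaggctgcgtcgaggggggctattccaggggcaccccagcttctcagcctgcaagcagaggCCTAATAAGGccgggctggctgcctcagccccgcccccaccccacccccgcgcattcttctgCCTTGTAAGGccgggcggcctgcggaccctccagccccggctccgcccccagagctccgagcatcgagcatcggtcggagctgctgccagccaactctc
Each holds 2 matches, which begin 84 and 34 bases before the Acta2 start and 161 and 99 bases before the Myl9 start. Of all 32851 promoters listed there 8.59% held at least 1 such match in the same window and 0.670% held 2 or more. Matches were found in 2 of the 5 myofibroblastic rule genes with an entry and in 0 of the 6 inflammatory rule genes with an entry. A match describes letters only.

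How the rule's contractile and matrix genes were spread over the members is given as a description only, since detection of these genes chose the cells. When members were thinned to 5000 UMIs each, 84.8%, 92.6% and 88.8% of the vehicle cells and 95.7%, 70.0% and 79.6% of the IPI-926 cells held at least 1 UMI of both the 4 contractile genes and the 4 matrix genes. Only 1.45% to 10.2% held matrix UMIs alone, and 1.92% to 26.4% contractile UMIs alone. IPI-926 replicate 2 had the largest contractile-only share. The contractile sum spread widely within a library, for example from 2 to 81 UMIs between the 10th and 90th percentile in vehicle replicate 1, around a median of 12. Across cells the contractile and matrix sums had Spearman correlations of -0.12 to 0.26 in the 6 libraries, over 140 to 473 cells that share a library and a fixed depth.

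The most abundant transcripts were those of matrix proteins and of housekeeping genes. Leaving out mitochondrial and ribosomal genes, the 15 most abundant genes included Sparc, Col3a1, Col1a2 and Col1a1, matrix proteins, with Timp1, a metalloproteinase inhibitor, and Mgp, matrix Gla protein. On the scaled CPM used from here on (library sizes scaled by the trimmed mean of M values, TMM), Col1a1 was at 6542, 9691 and 3609 under vehicle and at 7302, 7772 and 4301 under IPI-926. Mgp ran from 466 in IPI-926 replicate 3 to 12322 in vehicle replicate 3. Tags of 3' chemistry count molecules, so gene length was not divided out. Gm42418, a locus overlapping ribosomal RNA, ran from 980 to 50297 scaled CPM and is uncertain as a gene level.

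Set against inflammatory fibroblasts of the same library, members carried more of the secreted signal Inhba, of Tnc and of the osteopontin gene Spp1, and less of complement C4b, the chemokine Cxcl13 and tenascin-X (Tnxb). The contrast was set by the rule, so it is described and not tested. Median depth per inflammatory cell was 10084.5, 6023 and 6875 UMIs under vehicle and 13422, 20354 and 1511 under IPI-926. In every library it was below the members' median. The part of depth in the differences of single genes was not tested. Of 8408 genes outside the rule 1.23% were higher in all 6 libraries with a median difference above 2-fold, and 3.79% were lower in all 6 by that measure. Tnc, a tension-associated matrix glycoprotein, was higher by 4.86, 2.58 and 2.62 on the log2 scale in the vehicle libraries and by 8.31, 4.26 and 2.11 in the IPI-926 libraries. Inhba, the activin A subunit, was higher by 5.89, 1.33 and 2.01 and by 6.58, 4.10 and 2.79. Spp1 was higher by 3.52, 3.14 and 2.41 and by 3.94, 2.97 and 2.14.

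The 15 genes with the largest median excess went on with Nrep at a median log2 difference of 2.95, Dkk2, a WNT antagonist, at 2.70, Nes, the intermediate filament nestin, at 2.66, and Aldh1a3, a retinaldehyde dehydrogenase, at 2.5. After them came Enpp1 at 2.36, Ltbp2, a latent TGF-beta binding protein family member, at 2.35, Ptprn, Unc5b, Arl4c, Tes, Mgll and Gpc1, the last at 2.08. For Dkk2, Unc5b and Mgll the difference nearly vanished in IPI-926 replicate 3, at 0.04, 0.01 and 0.05. Those 3 genes thus separated the classes in the 5 deeper libraries.

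The 15 genes lowest in members were led by Tnxb at a median log2 difference of -4.36, Cxcl13 at -4.04, the cartilage matrix protein gene Cilp at -3.51 and C4b at -3.41. Ly6a, the antigen Sca-1, followed at -3.26, with differences of -3.74 to -2.12 in 5 libraries and -0.27 in IPI-926 replicate 3. Ifi27l2a stood at -3.25, Efemp1, fibulin-3, at -3.17 and Cdkn1c, the cell cycle inhibitor p57, at -3.15. The list closed with Scn7a, Col6a5, Entpd2, the lymphangiogenic ligand Vegfd, Ogn, Lrg1 and complement factor B (Cfb), the last at -2.45.

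**Figure D3:**
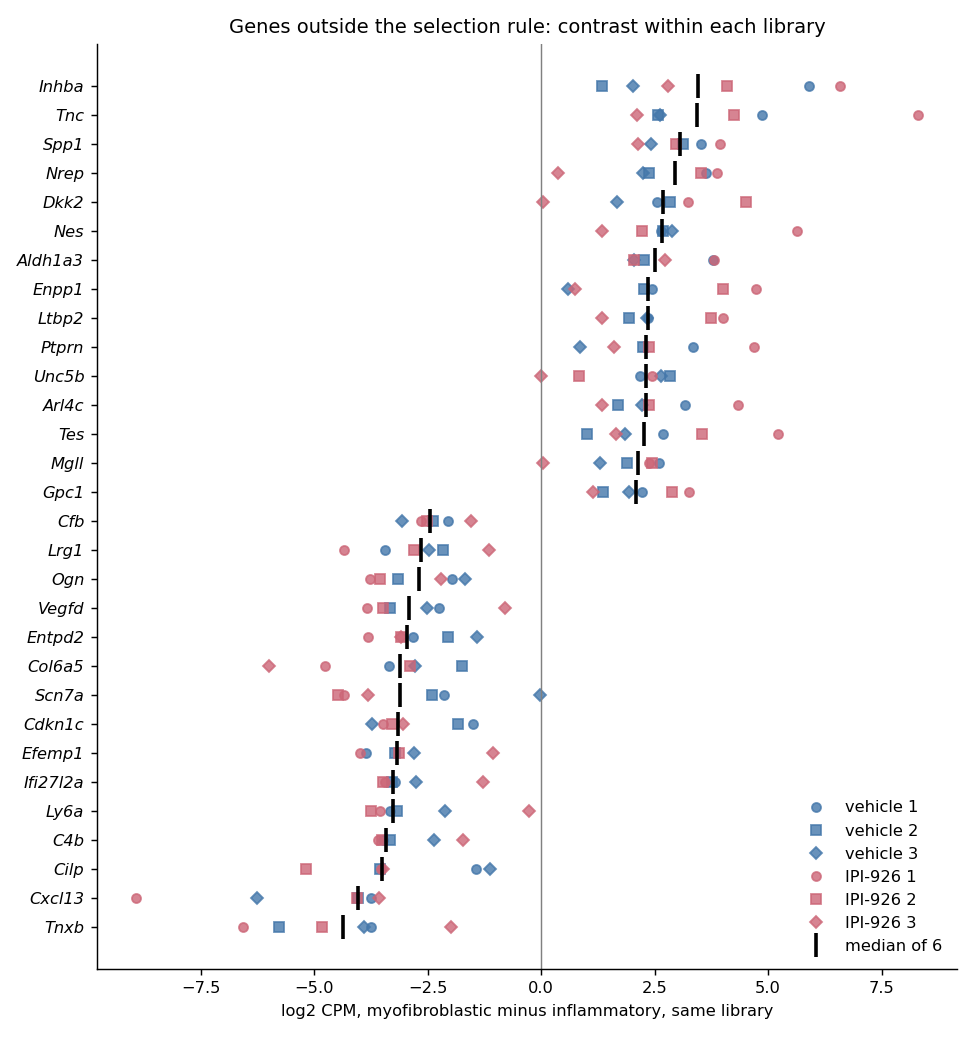
Difference of log2 CPM between myofibroblastic and inflammatory fibroblasts of the same library, for the 15 genes highest and the 15 lowest by median outside the selection rule; blue symbols are vehicle libraries, red IPI-926, the black bar the median of 6. Every plotted gene keeps 1 direction in all 6 libraries, and IPI-926 replicate 3 has the smallest difference for Nrep, Tnc, Nes, Tnxb and Ly6a among others.

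Gene lists outside the rule describe the same cells and are no independent check of it. Over all genes outside the rule 12.4% were higher in members in all 6 libraries and 13.6% lower in all 6, the background for such counts below. By median 4008 of these 8408 genes were higher and 4400 lower, the background for counts by median. Of 16 myofibroblast markers measured in both classes 11 were higher in members in all 6 libraries and the list's median was 1.45, against -0.02 over all genes outside the rule. By median 13 of the 16 were higher and 3 lower. Among the 3 were Mmp11, a metalloproteinase gene, and Grem1, a BMP antagonist, each with a median of -0.82. Of 17 inflammatory markers 11 were lower in all 6 libraries, at a list median of -1.57. Has2, a hyaluronan synthase on that list, went the other way in all 6, by 0.30 to 2.36, while Il6, the cytokine that named the inflammatory class, showed no single direction, with values from -1.35 to 1.12.

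Of 17 measured contractile genes outside the rule 12 were higher in members in all 6 libraries, at a list median of 0.77. Tpm1, a tropomyosin, was higher by 1.39 to 1.91, Cald1, caldesmon, by 0.66 to 1.24 and Flna, filamin A, by 0.73 to 1.5. Collagens outside the rule were mixed: 3 of 14 were higher in all 6 libraries and 1 was lower in all, against 12.4% and 13.6% of all genes, and the list's median was 0.31. Col8a1 was among the former, higher by 1.47 to 3.84. Sparc was level, with differences of -0.66 to 0.92.

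TGF-beta targets were higher by median in 10 of 10 measured, where 4008 of all 8408 genes outside the rule were, with a list median of 1.22. Ccn2, connective tissue growth factor, was higher by 1.0 to 2.93 and Pmepa1, a feedback inhibitor of the pathway, by 0.41 to 1.93. Of the glycolytic genes 14 of 14 were higher by median, at 0.68, but only 4 in all 6 libraries. The G2/M genes were higher by median in 13 of 13, at 0.92, and 7 were higher in all 6, among them Ube2c by 0.87 to 3.38 and Mki67, a proliferation marker, by 0.24 to 2.16. Vegfa, the main angiogenic ligand, was higher in all 6 by 0.15 to 2.1.

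Hedgehog targets had no common direction between the classes, at a median of -0.44 over the 5 measured. Ptch1 differed by 0.15, 0.07 and -0.68 in the vehicle libraries and by -0.72, -0.20 and -1.67 in the IPI-926 libraries, and Bmp4 by -0.59 to 0.74 under vehicle. Osr1, a mesenchymal transcription factor on the same list, was lower in members in all 6, by -3.51 to -0.41. Gli1 was at 5.5, 11.9 and 9.0 CPM in vehicle members and at 2.80, 5.61 and 16.4 CPM in the inflammatory cells, the latter from 6, 15 and 7 UMIs. Leukocytes held at most 0.117 CPM of Gli1 in any library.

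The series asked what Smoothened inhibition changes in each cell type. In myofibroblastic fibroblasts the Hedgehog targets Gli1, Ptch1, Wif1 and Bmp4 were lower in every IPI-926 library than in every vehicle library. Their fitted log2 fold changes were -3.47, -1.56, -5.30 and -1.52. No gene passed the threshold across the transcriptome in edgeR's quasi-likelihood test, in which 0% of 12254 genes were called at a Benjamini-Hochberg adjusted p of 0.05, the smallest adjusted p being 0.9996. At an unadjusted p under 0.05 stood 252 genes, 2.06%, with 103 higher and 149 lower. DESeq2 called 16 genes, 0.131% of 12216, of which 12 were lower and 4 higher, and limma-voom called 0.

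Gli1, the transcription factor that the pathway induces (chr10:127329882-127341974, minus strand, GRCm38), was at 5.62, 12.2 and 8.69 scaled CPM under vehicle, from 50, 168 and 39 UMIs. Under IPI-926 it was at 0.366, 1.71 and 0.354, from 2, 8 and 2 UMIs. The groups did not overlap, the highest treated value being 1.71 and the lowest vehicle value 5.62. The fitted log2 fold change was -3.47 (SE 0.68, n = 3 and 3), -3.11 without IPI-926 replicate 3 and -3.36 in members of at least 5000 UMIs. DESeq2 gave it an adjusted p of 0.00468.

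Ptch1, the Hedgehog receptor and feedback inhibitor (chr13:63508328-63573598, minus strand), was at 16.2, 16.4 and 25.8 scaled CPM under vehicle and at 8.59, 6.84 and 4.24 under IPI-926. Its log2 fold change was -1.56 (SE 0.35), and -1.33 without IPI-926 replicate 3. The groups did not overlap. Leukocytes carried 3.70 to 6.57 CPM of Ptch1 and the epithelial gate 10.7 to 18.3 CPM, so the treated members were near the leukocyte level.

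Bmp4, a BMP ligand that Hedgehog induces in gut mesenchyme (chr14:46383520-46390669, minus strand), was at 11.5, 25.0 and 23.4 scaled CPM and then at 6.03, 7.90 and 6.89. All treated values lay below all vehicle values. The log2 fold change was -1.52 (SE 0.35), and -1.52 without IPI-926 replicate 3. Leukocytes held 0.181 to 1.70 CPM.

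Wif1, a secreted WNT inhibitor (chr10:121033960-121100650, plus strand), was at 14.0, 2.25 and 37.7 scaled CPM under vehicle and at 0.183, 0 and 1.06 under IPI-926, from 1, 0 and 6 UMIs. The vehicle tumours differed widely among themselves, and the treated libraries were all lower than the lowest of them. The fitted log2 fold change was -5.30 (SE 1.34), which depends on the fit's handling of counts near 0, and DESeq2 gave an adjusted p of 0.00713. In vehicle replicate 1 its 125 UMIs came from 2.40% of members.

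The other Hedgehog targets tested overlapped between groups. Foxf2, a forkhead factor of gut and pancreatic mesenchyme, was at 1.80, 7.10 and 7.58 scaled CPM and then at 2.56, 1.92 and 2.12, a log2 fold change of -1.30. Sfrp1, a secreted WNT antagonist, was at 709, 1458 and 735, then 688, 871 and 236. Foxf1 and Osr1 had log2 fold changes of -0.03 and -0.11, whose signs turned under other settings. Hhip, Foxl1 and Foxd1 held 12, 27 and 9 UMIs in all members and were not tested.

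Of the 12 listed targets 8 were tested and all 8 had negative estimates, at a median log2 fold change of -1.41 against 0.00 over all genes tested. Groups did not overlap, with treatment lower, for 4 of the 8, where 2.66% of all 12254 genes did so. Gli1 and Wif1, both among the 4, passed the count filter through the vehicle libraries alone. Their place among the genes tested thus rested on the group where they were high. Without IPI-926 replicate 3 the list's median was -1.33, with 8 of 9 tested genes negative. In that comparison 6.1% of all genes tested lay below every vehicle library, 5.22% lay above every one, and 1.53% had an unadjusted p under 0.05. The genes that carry the signal inward moved less: of 15 components tested 10 were negative at a median of -0.03. Among these Smo, the drug's target, was at 38.9, 33.0 and 39.9 and then 29.6, 39.5 and 22.8 scaled CPM, and Gli2 had a log2 fold change of -0.84. Cdon, a Hedgehog co-receptor, was the only one lower in every treated library, at 21.8, 21.1 and 21.8 and then 15.5, 13.9 and 18.7.

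**Figure D4:**
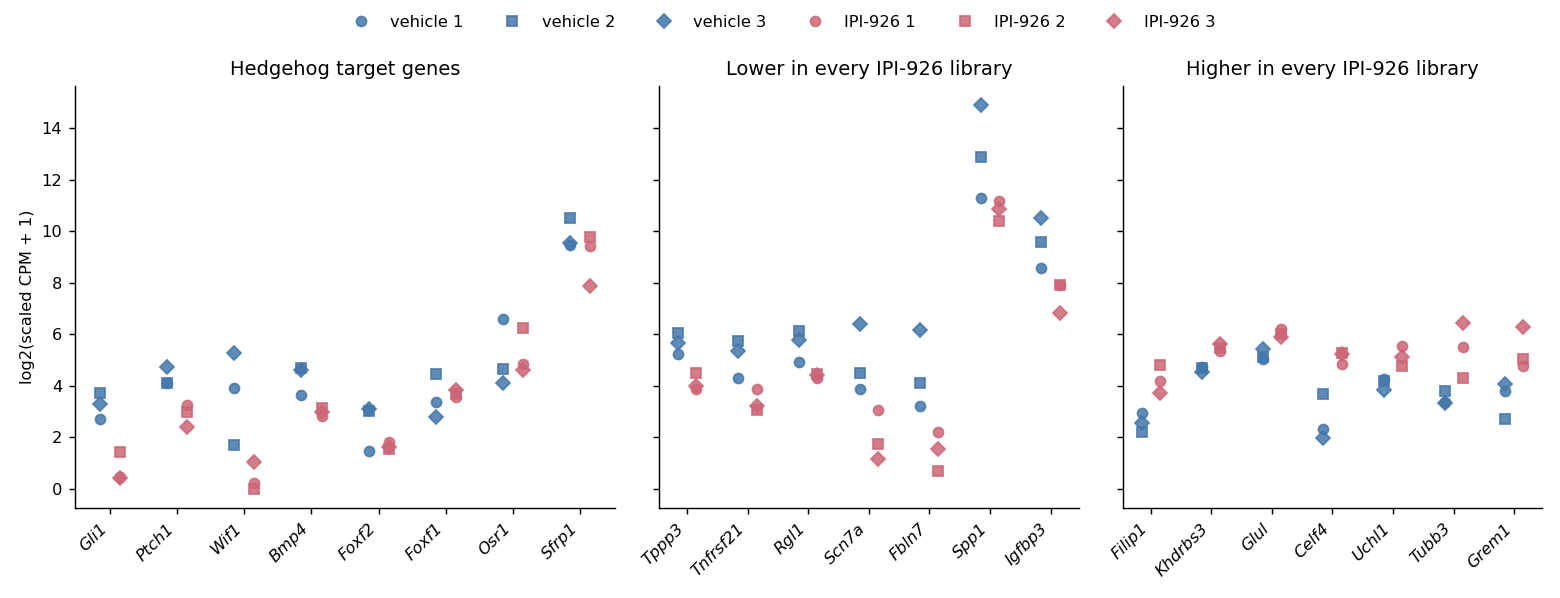
Scaled CPM of single genes in members as log2(value + 1), 1 point per library (blue vehicle, red IPI-926). Gli1, Ptch1, Wif1 and Bmp4 separate the groups at left, whereas Foxf1, Osr1 and Sfrp1 overlap; the middle and right panels show genes chosen because their groups did not overlap.

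Outside the pathway list the genes of smallest p fell into several kinds. Tppp3, a tubulin-binding protein, was at 36.5, 65.0 and 49.2 scaled CPM and then at 13.9, 21.8 and 15, and DESeq2 gave an adjusted p of 0.0105. Rgl1, a Ral exchange factor, was at 29.5, 69.1 and 53.9 and then 18.6, 20.7 and 20.7, and Tnfrsf21, a death receptor, at 18.8, 53 and 39.7 and then 13.7, 7.26 and 8.31. Neither was called by DESeq2. Groups did not overlap for any of these 3 genes, which adds little because they were chosen for their small p. With treatment lower, groups did not overlap for 2.66% of all genes tested. 1500009L16Rik had a log2 fold change of -1.92.

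Further genes that DESeq2 called lower were Sept4, a septin (log2 fold change -2.76), the chemokine Ccl17 (-3.45), the adhesion protein Fbln7 (-3.90) and Scn7a, a sodium channel (-3.42). Scn7a was at 13.7, 21.8 and 83.3 scaled CPM and then at 7.31, 2.35 and 1.24. Of the 16 DESeq2 calls 5 were acinar or gastric epithelial genes: Ctrb1, Try5, Reg1, Gkn1 and Gkn2. Ctrb1, a pancreatic digestive enzyme, was at 13.9, 1471 and 127 and then 0.731, 2.14 and 2.83, in step with the summed level of 8 acinar markers in members, 48.1, 3449 and 262 CPM and then 1.93, 13.2 and 10.8 CPM. Gkn1, a stomach mucosa protein, was at 52.3, 14.5 and 62.2 and then 0.183, 1.07 and 3.89, beside 12 epithelial markers summing to 865, 230 and 775 and then 77.9, 197 and 350 CPM. The part of RNA from those cells in these values was not tested.

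Genes higher under IPI-926 with the smallest p were mostly low in level. Filip1, a filamin-binding protein, was at 6.63, 3.62 and 4.90 scaled CPM and then at 17, 27.3 and 12, a log2 fold change of 1.89 (SE 0.40). Celf4, an RNA-binding protein, was at 4.04, 11.8 and 2.90 and then at 27.4, 37.4 and 36.6. Tubb3, a neuronal-type tubulin, was at 9.43, 12.8 and 9.13 and then at 44.6, 18.6 and 86.1. In each case all 3 treated libraries lay above all 3 vehicle libraries, and DESeq2 gave adjusted p of 0.0340, 0.0146 and 0.0421.

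Glul, glutamine synthetase, was at 31.8, 33.9 and 41.7 scaled CPM and then at 72.4, 64.1 and 59.0, a log2 fold change of 0.87 (SE 0.20), and 0.93 without IPI-926 replicate 3. Khdrbs3 (0.84), Uchl1, a deubiquitinase (1.12), Tanc2 (0.79) and Chd7, a chromatin remodeller (1.13), were also higher in every treated library and not called. Grem1, a secreted BMP antagonist, was at 12.8, 5.5 and 15.6 and then at 26.5, 31.6 and 77.3. Its log2 fold change was 2.02 (SE 0.56), and 1.38 without IPI-926 replicate 3. Non-overlap with treatment higher held for 2.31% of all genes tested. The genes of this paragraph and of the one before were chosen for their small p, so their own non-overlap adds little.

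Spp1, osteopontin (chr5:104435118-104441050, plus strand), was at 2468, 7498 and 30337 scaled CPM under vehicle and at 2290, 1338 and 1835 under IPI-926. The treated values sat together just below the lowest of 3 widely spread vehicle values, and the fitted log2 fold change of -2.88 (SE 0.88) was -1.45 without vehicle replicate 3. DESeq2 gave an adjusted p of 0.0705. Epithelial cells and leukocytes of these libraries also held Spp1, at 2835 to 9413 and 135 to 7710 CPM, and their part in the members' level was not tested.

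Myofibroblast markers outside the rule had no common direction under treatment. Of 20 tested 8 were positive and 12 negative, at a median log2 fold change of -0.50, and -0.07 without IPI-926 replicate 3. Grem1 was higher in all treated libraries and Igfbp3 and Itga11 lower, as were 2.31% and 2.66% of all genes tested. Igfbp3, a TGF-beta responsive binding protein, was at 379, 754 and 1438 scaled CPM and then 239, 241 and 113. The rule's own genes stayed in the fit across all genes, but since they chose the cells they are given as levels only. Acta2 was at 2175, 1090 and 468 and then 1760, 1472 and 851, with the groups overlapping.

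Contractile genes (14 of 20 negative, median -0.16) and matrix glycoproteins (15 of 22 negative, median -0.14) stayed near the median of all genes and had medians of -0.00 and 0.06 without IPI-926 replicate 3. Collagens had 13 of 17 negative estimates at a median of -0.35, and -0.42 without that library. Only Col6a1 among them was lower in every treated library, as were 2.66% of all genes tested. It was at 515, 490 and 896 and then 489, 457 and 482 scaled CPM, so the groups nearly met at 490 and 489. TGF-beta targets (8 of 11 negative, median -0.25) had a median of 0.05 without IPI-926 replicate 3.

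The study also asked about WNT and VEGF signals. Secreted WNT antagonists were negative for 6 of 9 tested at a median of -0.67, and 2 were lower in every treated library, as were 2.66% of all genes tested: Wif1, which is also on the Hedgehog list, and Dkk3, at 107, 122 and 191 and then 92.1, 86.3 and 82.6 scaled CPM. Ligands were negative for 8 of 10 at a median of -0.60 and -0.31 without IPI-926 replicate 3, with Wnt6 alone lower in every treated library against the same 2.66%. Wnt5a, a non-canonical ligand, was at 76.9, 75.1 and 72.6 and then at 87.2, 69.2 and 39.6. WNT target genes split 5 to 5 at a median of 0.02. Vegfa was at 196, 139 and 88 and then 305, 98.5 and 63.3, with the groups overlapping.

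The medians of the interferon and antigen presentation lists rested on 1 library. Interferon response genes had 20 of 20 positive estimates at a median of 2.05, and 16 of 20 at 0.31 without IPI-926 replicate 3. Isg15, Bst2 and Xaf1 were higher in every treated library, as were 2.31% of all genes tested. Isg15, an interferon-induced ubiquitin-like protein, was at 32.6, 45.3 and 18.5 and then 164, 63.7 and 337 scaled CPM. DESeq2 gave Isg15 an adjusted p of 0.0262. Iigp1 was at 36.4, 10.9 and 809 in the treated libraries. MHC class I genes went from a median of 1.65 to 0.11 and the class II set with Cd74 and Slpi from 1.95 to -0.71. Myeloid markers, high in that library, went from a median of 2.32 to -0.76. In members of at least 5000 UMIs, all libraries included, medians were 2.03 for interferon genes and 1.62 for class I. They were 0.42 for the class II set and 0.48 for myeloid markers. Why the lists differed in this was not tested.

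Glycolytic genes had 13 of 14 positive estimates at a median of 0.53, and 14 of 14 at 0.48 without that library. No glycolytic gene separated the groups: Gapdh was at 1910, 795 and 760 and then 1871, 1376 and 1670, with vehicle replicate 1 as high as the treated tumours. Hypoxia genes had 15 of 16 positive at 0.47 and 0.55, and their median ran from 0.00831 to 1.10 over 18 alternative settings. Immediate early genes, which rise with handling of tissue, were all 15 negative at -0.32, and 10 of 15 at -0.15 without IPI-926 replicate 3. G2/M genes had a median of 0.30, and -0.07 without it.

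**Figure D5:**
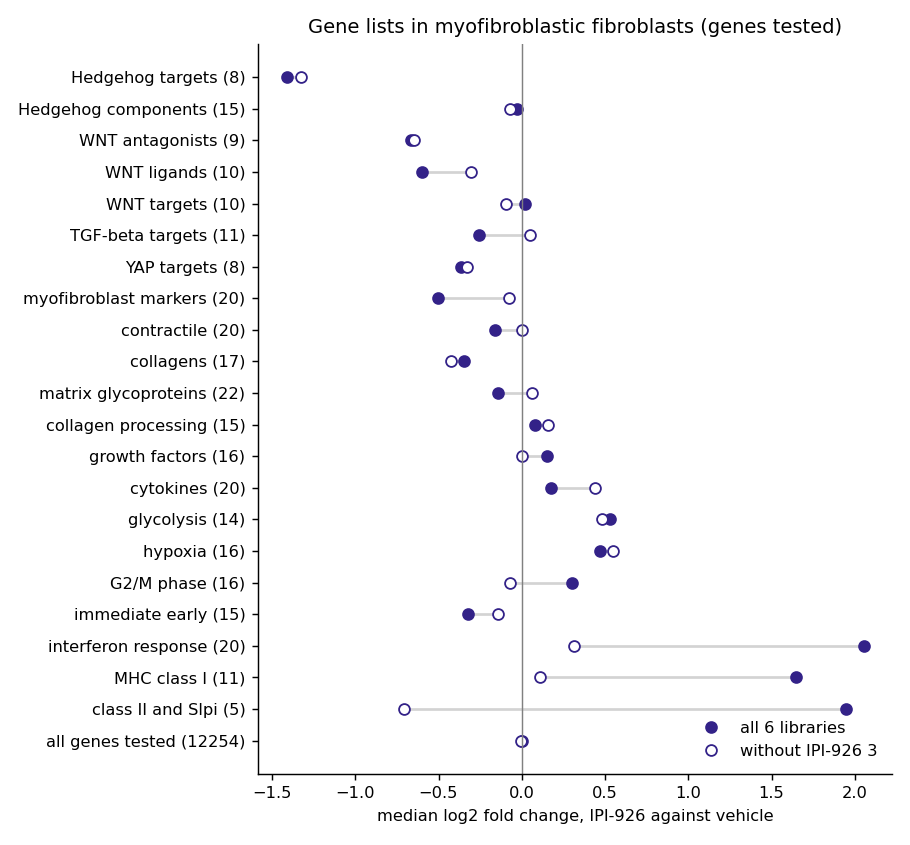
Median log2 fold change of each gene list in members, IPI-926 against vehicle; filled points use all 6 libraries, open points leave out IPI-926 replicate 3, and the number of genes tested with all libraries stands in brackets. Hedgehog targets stay at -1.41 and -1.33, whereas interferon response genes go from 2.05 to 0.31 and the class II set from 1.95 to -0.71.

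Inflammatory fibroblasts of the same 6 libraries, which thus share the control mice, had 0 of 8448 genes called by edgeR, with 167 (1.98%) at an unadjusted p under 0.05. Ptch1 had a log2 fold change of -0.85 (SE 0.53) in them and -1.56 in members, and Bmp4 -0.89 (SE 0.68) and -1.52. The other 3 Hedgehog targets tested in them had positive estimates: Sfrp1 0.93, Foxf1 0.45 and Osr1 0.12, where members had -0.69, -0.03 and -0.11. The list's median was thus 0.12 in inflammatory cells over 5 genes. Over those same 5 genes the middle value in members was -0.69, and over the 8 tested in members the median was -1.41. Gli1 was too low in them for the test, with 28 UMIs under vehicle and 0 under IPI-926. The difference of response was tested directly on the within-library difference: limma called 0 of 8432 genes, with 318 (3.77%) at an unadjusted p under 0.05, and an edgeR fit with a library term called 0. For Ptch1 the difference was -0.71 (SE 0.45) and for Bmp4 -0.29 (SE 0.60), each with a limma adjusted p of 0.996. Sfrp1 differed by -1.65 (SE 0.48) at the same adjusted p. A difference of response between the classes was therefore not shown for these genes, nor was equality.

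The share of myofibroblastic cells did not separate the groups. Of Crabp1-low fibroblasts they were 60.7%, 62.0% and 76.4% under vehicle and 70.2%, 72.1% and 66.4% under IPI-926. The means were 66.3% ± 8.70 and 69.6% ± 2.94 (SD, n = 3 each), a difference of 3.22 percentage points with a two-sided exact permutation p of 0.6, where 0.1 is the smallest this design allows. Cell counts bound each share, for example 57.4% to 64.0% in vehicle replicate 1 and 65.6% to 77.9% in IPI-926 replicate 2 (95% Wilson binomial interval, counting error only). Since the rule counts detected genes, it was also applied to cells thinned to 2000 UMIs, which gave a difference of 11.3 points (exact permutation p = 0.3). The Crabp1 limit was applied after thinning too, so cells above it at full depth could enter. In IPI-926 replicate 3 this gave 1110 members whose unthinned UMIs summed to 33896813, against 1071 members and 5350787 UMIs without thinning. The thinned share therefore does not compare the same cells at 1 depth. As a share of all cells kept, members were 7.09%, 6.52% and 5.11% and then 2.87%, 2.19% and 6.52% (two-sided exact permutation p = 0.3).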

How the data were processed

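Per the labels, each of the 6 libraries is 1 mouse tumour. The authors deposited UMI counts per gene and barcode, unnormalized, for 32285 genes. Cell Ranger is given as 6.1.2 per the file headers, but as 2.1.1, with genome mm10, per the submitters' processing notes, and which made the files is not known. Barcodes needed at least 500 UMIs, 300 genes and at most 20% mitochondrial UMIs. No doublet caller was run: cells with transcripts of other types were left out by the rule, and a stricter exclusion was an alternative. The members, the gene lists and the rules were chosen with earlier results of these data known. Library totals ran from 100810942 to 174929328 UMIs, and summed members from 4335424 to 14081363.

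Counts were summed per library over the members, since cells are not replicates. Genes that passed edgeR's filterByExpr were tested by quasi-likelihood (edgeR 4.0.16, TMM scaling, robust fit) with Benjamini-Hochberg adjustment at 0.05. The SE beside an edgeR log2 fold change is its absolute size divided by the square root of the quasi-likelihood F statistic. limma 3.58.1 tested the within-library difference of log2 CPM between the 2 fibroblast classes for a difference of response. Shares of cells were compared by two-sided exact permutation tests. The same sums gave the contrast within libraries, which was not tested. Scripts were tested on simulated data. The p-values measure the spread between these mice.

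Named genes were all Hedgehog targets, and the 10 higher and 10 lower genes of smallest edgeR p with a mean of at least 10 CPM in a group. Of the other lists up to 4 members of highest mean level were eligible, and for the contrast within libraries the 15 genes of largest median difference in each direction. The 15 most abundant genes were eligible too. Genes named for groups that do not overlap, for DESeq2 calls, or as exceptions within a list were chosen after their values were seen. Alternatives were DESeq2 1.42.0, limma-voom, other scaling and filters, stricter or thinned members and each library left out. Members of at least 5000 UMIs were an alternative chosen after seeing the data. Positions are from GENCODE vM21 on GRCm38. A few genes and alleles are not reported here, though they stay in the counts and medians of their lists.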

Additional observations from a re-analysis of the deposited data

Results flagged for a closer look

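The Crabp1-high fibroblasts that the rule left out are a signal outside the comparisons above: 2622 of them were in IPI-926 replicate 3, against 1, 0 and 2 in the vehicle libraries and 0 in the other treated libraries. They held 2512 CPM of Crabp1, 1292 CPM of Cthrc1, 886 CPM of Thbs2 and 887 CPM of Acta2, at a median of 21252 UMIs per cell. Members of the same library held 899 CPM of Acta2 at a median of 1699 UMIs. Gli1 was at 0.162 CPM in the Crabp1-high cells and at 0.374 CPM in the members of that library.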

How the results depend on the processing

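The count of 0 genes called by edgeR in members held under other scaling, other filters, stricter membership, thinning and each library left out, and with limma-voom (175 at an unadjusted p under 0.05), while DESeq2 called 16. The tests of inflammatory fibroblasts and of the difference of response also called 0 genes under every alternative. The share of members had no threshold it could cross, since its exact permutation p cannot go below 0.1. The contrast within libraries was not tested, and its marker list medians moved by less than their spread between libraries. Among the list medians of treatment response, 31 values under alternatives moved by more than the spread between libraries of a group. The difference in the share of members ran from 0.411 to 8.23 points over the libraries left out in turn. It was 0.103 points without any UMI of other cell types and 11.3 points with the rule at 2000 UMIs. Of 553 values for 32 named genes under alternatives 543 kept their direction and 10 reversed, all of Foxf1 and Osr1. Most of the 32 were chosen for a small p in these same data, and the alternatives refit the same libraries. A kept direction was therefore likely from the start and is no separate evidence. Foxf1 and Osr1 are from the Hedgehog list, which was not chosen by p. The log2 fold change of Foxf1 was 0.00914 with limma-voom, 0.12 without any UMI of other cell types, 0.0172 with the rule at 2000 UMIs, 0.62 without vehicle replicate 2 and 0.04 without IPI-926 replicate 1. In turn, a log2 fold change of Osr1 above 0 was found with limma-voom, at 0.0639, then 0.0728 with equal cells per library, 1.04 without vehicle replicate 1, 0.12 without IPI-926 replicate 1 and 0.18 without IPI-926 replicate 3. Over the libraries left out in turn the lowest values were -0.34 for Foxf1 and -0.83 for Osr1. The cause was not tested. Gli1 ranged from -4.56 to -2.90, Ptch1 from -1.83 to -1.31, Bmp4 from -1.80 to -1.10 and Wif1 from -7.27 to -4.18. Depth limits the lowest targets: 12 UMIs of Gli1 were counted in all treated members. No paired analysis was possible because the labels give no number or litter that pairs vehicle with IPI-926 mice.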

Other observations

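A few homeobox genes, chosen after their values were seen and from no fixed list, are given as values. Barx1, a homeobox factor of foregut mesenchyme, was at 163, 176 and 91.6 scaled CPM in vehicle members and at 3.11, 82.0 and 2.65 in treated ones, with all treated values below all vehicle values. Hoxc8, a homeobox gene of the trunk, was at 0.337, 0.0724 and 0.446 under vehicle and at 30.5 and 13.2 in IPI-926 replicates 1 and 2, from 167 and 62 UMIs, and no UMI was seen in replicate 3. Hoxc6 was at 3.26, 0.942 and 3.79 and then at 16.3, 15.4 and 0. None of these genes was called by edgeR.

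Id3, a transcriptional target of BMP signals, was at 477, 385 and 570 scaled CPM in vehicle members and at 256, 330 and 295 under IPI-926, without overlap. The log2 fold change of Id3 was -0.70, and -0.70 without IPI-926 replicate 3. Id1, another such target, overlapped, at 40.1, 31.9 and 31.9 and then 21.0, 28.4 and 62.1. Gas6, a ligand of TAM receptors, was at 148, 186 and 287 and then at 72.7, 109 and 92.5. These genes too were picked after their values were seen.

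The levels of Saa3 and Cxcl14, also picked after their values were seen, overlapped between the groups. Saa3, an acute phase protein, was at 4251, 808 and 48.1 scaled CPM in vehicle members and at 1321, 4197 and 118 in treated members. The chemokine Cxcl14 was at 693, 859 and 2766 and then at 2118, 275 and 52.3.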
